A study of Mus musculus with 2 samples.

Results

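Integrins and the proteins of focal adhesions were followed in glomerular RNA from mice with podocyte-driven deletion of GC-A and p38 and from floxed controls. Members were the probe sets whose only gene symbol on the platform began with Itga or Itgb, or was 1 of 19 named components of the adhesion plaque. This gave 106 of 45037 probe sets, standing for 46 of 18193 genes. Of the 19 named components, Ptk2 and Fermt1 had no probe set with a listed symbol and were not analysed here. The prefix also took in Itgb1bp1 and Itgb3bp, whose products bind β subunits, Itgb1bp2, and Itgbl1, whose product resembles one, so 25 of the 46 genes encode integrin subunits or, for Itgb2l, a β2-like chain.

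Each genotype was measured on 1 array. The RNA came from glomeruli of male C57BL/6J mice in which both alleles of GC-A and of p38 were floxed (GC-A fl/fl p38 fl/fl). GC-A is the receptor of the natriuretic peptides and p38 a stress-activated kinase, and the labels name no p38 isoform. In the double knockout, Nephrin-Cre (Cre/+), the nephrin promoter drives the recombinase in podocytes, so by design the other glomerular cells should keep both genes. Recombination in each cell type cannot be seen in these arrays. The floxed control was Nephrin-Cre (+/+), read here as having no Cre. All mice were studied at 2 months of age after 3 weeks of 6% NaCl in the diet and aldosterone at 0.2 µg per kg body weight per minute from a minipump, and there was no untreated group. The labels do not give the number of mice behind an array. With 1 array a group there is no spread between animals and no test, and every difference below is a difference between these arrays.

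Integrins are αβ heterodimers that tie the matrix outside a cell to actin inside it. Talin and kindlin bind the β tail and switch the receptor on, vinculin, zyxin and tensins bring in actin, and the trio of ILK, PINCH and parvin forms a second bridge. In the podocyte, α3β1 holds the foot process to the laminin of the basement membrane. Mesangial cells use α8β1, and leukocytes use the β2 and β7 integrins to leave the blood.

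Signals are linear MAS5 intensities. A signal under the floor of 52.7 was raised to it, and a gene was measured where its brightest probe set reached the floor on at least 1 array. This held for 44 of the 46 genes and 86 of the 106 probe sets. Differences are double knockout minus control on the log2 scale. Npr1, which encodes GC-A, had signals of 102 against 167 in the control, and Mapk14, for p38α, had 2607 against 2628 on its brightest probe set; where these probe sets lie relative to the floxed exons is not given in the sources used here. Most podocyte markers were well above the floor on both arrays (Nphs1 8373 and 5320, though Robo2 62.7 and 42.5), but so were most tubule markers (Umod 21474 and 23822). The 18 measured markers of the proximal tubule and the 16 of later segments were all lower in the double knockout, with medians of -0.81 and -0.70. The 56 measured markers of podocytes, endothelium, mesangium and parietal epithelium had a median of 0.58, with 50 above 0. In bulk samples, fewer cells of a type, in the animal or in the sieved glomeruli, and less RNA per cell cannot be told apart. Values recentred on that median of 0.58 are therefore given beside the deposited scale. This takes the same 0.58 from every gene, so that 17 of the 33 members above 0 turn below it.

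On the deposited scale, the members lay mostly on the side of the double knockout, by small amounts. Of the 44 measured members 33 were above 0 (75%, against 56.1% of all 13290 measured genes) and 11 below. The median member difference was 0.34, against 0.07 over all genes, and it was -0.24 against -0.51 after recentring on the glomerular markers. A 1.5-fold higher signal was reached by 16 of 44 members (36.4%), against 13.7% of all genes, and a 1.5-fold lower one by 2 (4.55%), against 10.0% of all genes. After centring each array on its median, these counts were 14 and 4 members, against 10.7% and 13.0% of genes. After recentring on glomerular markers they were 0 and 10 members (22.7% lower), against 1.96% and 43.4% of genes. At 2-fold there was 1 higher member, Itgb7 (3.53% of genes were that much higher), and 1 lower member, Tln2 (2.87% of genes). Shares of 2.27% each are near or below these backgrounds. After recentring, 0 members were past 2-fold upward and 5 (11.4%) downward, against 0.564% and 16.0% of genes. Among probe sets, 5 of 86 reached 2-fold upward (5.81%, against 3.27% of 24455 measured probe sets) and 1 reached it downward (1.16%, against 2.39%).

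**Figure D1:**
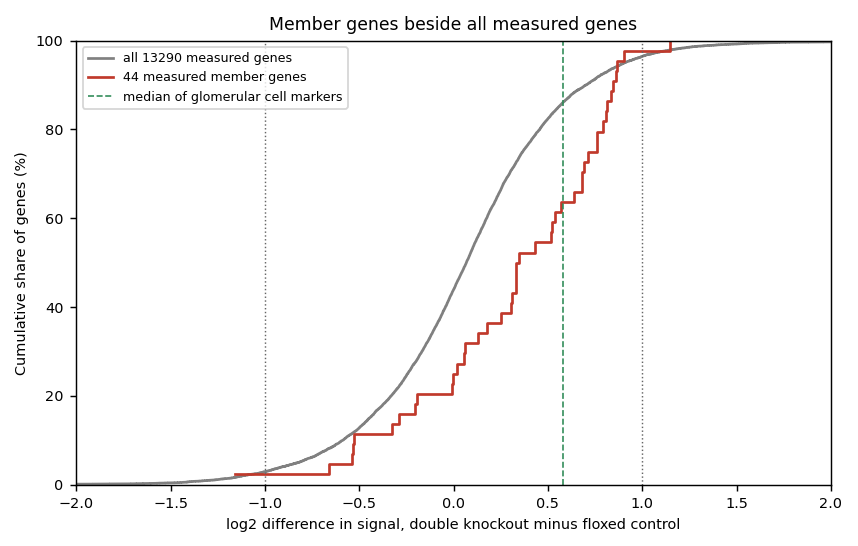
Cumulative share of genes (y axis, %) by log2 difference in signal, double knockout minus floxed control (x axis), for the 13290 measured genes in grey and the 44 measured members in red; dotted lines mark 2-fold and the dashed line the glomerular marker median of 0.58. The member curve lies right of the grey curve from below 0 to beyond the dashed line, with medians of 0.34 and 0.07. Both medians fall below 0 (-0.24 and -0.51) if the dashed line is taken as the zero.

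With no replicate array, the probe sets of 1 gene are the nearest view of measurement error, although they share the RNA and the array. Over 5418 genes with a second probe set at or above the floor, the brightest and the next disagreed by a median of 0.20 on the log2 scale, and by 0.60 at the 90th percentile. Both had the same sign in 75.2% of these genes. Among 22 members the median disagreement was 0.26, and 19 of the 22 had the same sign in both probe sets. Of 26 members with at least 2 measured probe sets, 19 had all of them on 1 side of 0. In 8 of the 26 the differences spread over more than 0.5. These counts over all measured probe sets were not made for the other genes. A member difference of 0.3 or so therefore lies within what probe sets of 1 gene can disagree by.

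**Figure D2:**
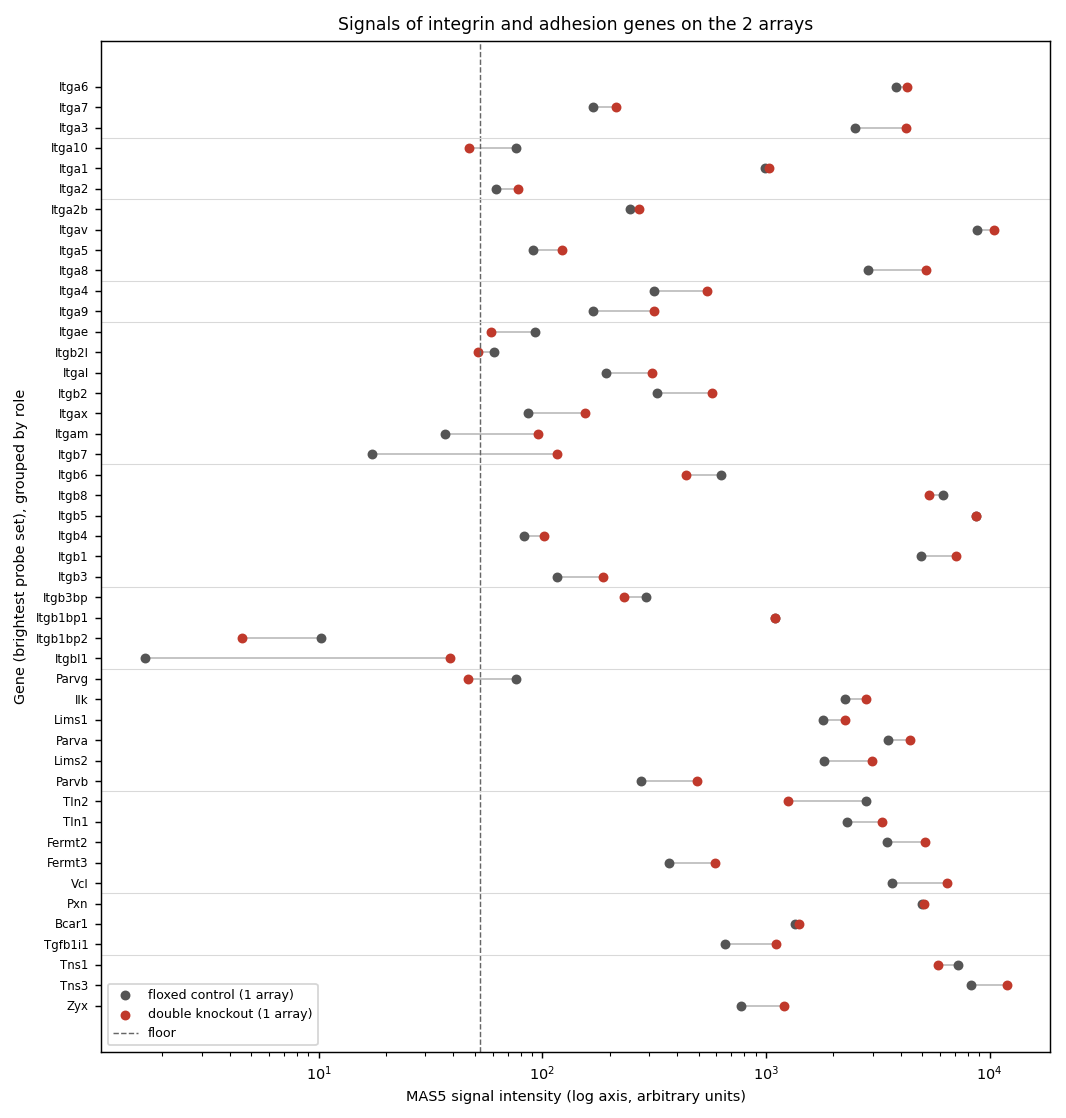
MAS5 signal (x axis, log scale) of the brightest probe set of each of the 46 member genes, grouped by role and joined between the floxed control (grey) and the double knockout (red), 1 array each; the dashed line is the floor of 52.7. Red lies right of grey for most genes, and the clearest exception among bright genes is Tln2, at 1254 against 2796. The scale is the deposited one.

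The laminin-binding α subunits were led by Itga3, the podocyte's main adhesion receptor chain. Its brightest set of probes gave 4236 in the double knockout against 2503 in the control, 1.69-fold higher (0.76, or 0.18 recentred). A further Itga3 probe set gave the same 0.76 (776 and 459), and the third gave 1.39 (1129 and 431). All 3 Itga3 probe sets were thus higher, and also above the glomerular median. Itga6, whose chain binds laminin in epithelium and endothelium, read 4289 and 3800, a difference of 0.17 (-0.40 recentred). Itga7, the laminin receptor chain best known from muscle, read 213 and 168 (0.35, or -0.23 recentred). The 3 genes had a median of 0.35, or -0.23 recentred.

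Itgb1, the common partner of these chains, read 7101 in the double knockout against 4939 in the control, 1.44-fold higher (0.52, or -0.06 recentred). Its next probe set gave 0.61 (5911 and 3868). A cross-hybridising Itgb1 probe set gave 1.06 (783 and 374), and 3 more lay below the floor on both arrays. On its brightest probe set Itgb1 stood just under the glomerular median of 0.58, while its other measured probe sets lay above that median. The brightest Itgb1 probe set was also under that of Itga3 (0.76), by an amount that probe sets of 1 gene can disagree by. Podocyte markers had a median of 0.47 over 15 measured genes, 14 of them above 0, and their part in these 2 differences was not tested.

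Collagen-binding α subunits were near 0, with a median of 0.06 (-0.52 recentred). Itga1, a collagen IV receptor chain of mesangial and endothelial cells, read 1027 and 986, and its other probe set read 414 in the double knockout against 439 in the control (-0.08). Itga2 was only just above the floor, at 78.2 and 62.2. Itga10, a chain known from cartilage, was at 47.0 in the double knockout, below the floor, and 76.5 in the control. For such dim probe sets a difference says little.

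Among the RGD-binding α subunits, which recognise a short motif in fibronectin, vitronectin and related ligands, Itga8 was highest. It encodes the mesangial receptor for nephronectin and read 5196 in the double knockout against 2857, 1.82-fold higher (0.86, or 0.28 recentred). The second Itga8 probe set gave 0.89 (1059 and 571). Npnt, the gene for nephronectin, read 10546 and 7618 (0.47). The 13 measured mesangial and mural markers had a median of 0.54, with 11 above 0 and sums of signals of 41085 and 26972, and their part in the Itga8 difference was not tested. Itgav read 10439 and 8755 (0.25), and its other measured probe sets gave 0.55 and 0.38. Itga5, the fibronectin receptor chain, was dim at 123 and 90.9 (0.43). Itga2b, the platelet fibrinogen receptor chain, read 271 and 247 (0.13). The median of these 4 genes was 0.34, or -0.24 recentred.

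The αv chain pairs with several β subunits, and these went separate ways. Itgb3, found on endothelium, podocytes and platelets, read 187 in the double knockout against 116 in the control, 1.61-fold higher (0.69, or 0.11 recentred). This call depends on the floor, since the Itgb3 difference was 0.054 under a floor at the 60th percentile, and 0.57 with a pseudocount of 32. Itgb5, a vitronectin receptor chain, was level at 8653 and 8706, with its 4 probe sets between -0.01 and 0.11. Itgb8, which with αv releases TGF-β from its latent form, read 5385 and 6165 (-0.20, or -0.77 recentred). Itgb6, the epithelial β chain that does the same, was lower in the double knockout, at 439 against 632 (-0.53), and its other probe set gave -0.78 (262 and 450). So the αv partners spanned from 0.69 to -0.53 on the same arrays, with Itgb6 the lowest. Itgb6 shared its direction with the tubule markers, of which the 16 from the loop, distal tubule and collecting duct summed to 53959 in the double knockout against 76007 in the control. Their part in the Itgb6 value was not tested. Itgb4, the hemidesmosome chain that pairs with α6, was dim at 102 and 82.6. Over the 6 β subunits outside the leukocyte group the median was 0.15, or -0.43 recentred, with 3 above 0 and 3 below.

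The α4 and α9 chains bind VCAM-1, tenascin and osteopontin. Itga4 read 546 in the double knockout against 315 in the control, 1.73-fold higher (0.79, or 0.21 recentred), and its other measured probe sets gave 0.83 and 0.45. Itga9 was 1.87-fold higher at 315 against 168 (0.90, or 0.32 recentred), the member next below the 2-fold limit. The other Itga9 probe sets gave 0.38 (218 and 168) and, with a control signal below the floor, 0.21. Both genes were higher on each measured probe set, but by amounts that differed, and their median was 0.85, or 0.27 recentred. Of their ligands, Vcam1 read 3241 and 458 (2.82), Tnc 2203 and 647 (1.77) and Fn1 4428 and 968 (2.19).

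Leukocyte integrins had a median of 0.81, or 0.24 recentred, with 5 of 7 measured genes above 0. Itgb2, the shared β2 chain, read 574 in the double knockout against 327 in the control, 1.76-fold higher. Its α partners were Itgal (LFA-1) at 310 and 193 (0.68), Itgax (CD11c) at 155 and 86.1 (0.85) and Itgam (CD11b) at 96.0 and 36.7, where the control was below the floor and the fold is at least 1.82. A dimmer Itgal probe set gave 0.28 (63.8 and 41.1, the control below the floor). On their brightest probe sets Itgal, Itgb2 and Itgax, at or above the floor on both arrays, lay between 0.68 and 0.85. The value of Itgam (0.87) is a lower bound, and it was 1.39 under a floor at the 25th percentile. Under a floor at the 60th percentile Itgam and Itgax were no longer measured. Itgam and Itgax are immediate neighbours among protein-coding genes on mouse chromosome 7 in the RefSeq table. Itgb7, the chain of the gut-homing and intraepithelial lymphocyte integrins, read 116 in the double knockout against 17.4 in the control, at least 2.21-fold higher against the floor. It rests on 1 probe set. Itgae, a partner of β7 in lymphocytes that lodge in epithelium, went the other way at 58.9 and 93.0 (-0.66), as did its other probe set (-0.26). The β2-like gene Itgb2l, placed in this group after its values were seen, was at the floor with 51.6 and 60.8.

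The macrophage and monocyte markers shared the direction of the β2 integrins. All 15 were above 0, with a median of 0.90 and sums of signals of 14159 in the double knockout against 7878 in the control. Of 10 lymphocyte markers with a named probe set 5 were measured, with a median of 0.19 and sums of 613 and 566, and Cd3e, Cd3g, Cd3d, Cd4 and Cd79a were below the floor on both arrays. The 7 measured neutrophil and platelet markers had a median of 0.17 and went both ways, summing to 1910 and 2119. Fermt3, the kindlin of blood cells, read 590 and 368 on its brightest probe set (0.68), while others gave 1.24 (271 and 115) and 1.07 (110 and 50.9). Parvg, the parvin of blood cells, was near the floor at 46.4 and 76.2. The part of these cells in the members' values was not tested. Without the 11 members known from blood cells (the leukocyte integrins, Fermt3, Parvg, Itga2b and Itga4), the median of the remaining 33 was 0.33, or -0.25 recentred.

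The bridge of ILK, PINCH and parvin was higher by small and similar amounts in its widely expressed members. Ilk, the pseudokinase at its centre, read 2810 in the double knockout against 2268 in the control (0.31, or -0.27 recentred). Lims1, for PINCH1, read 2261 and 1800 (0.33), and its other probe sets gave 0.31, 0.23, 0.24 and -0.09. The 0.24 came from the dimmest set, 62.3 and 49.9 with the control below the floor. The -0.09 came from a somewhat brighter one, at 133 and 142. Parva, for α-parvin, read 4408 and 3505 (0.33), and its other probe set gave 0.37. The 3 subunits of this complex thus differed by nearly the same amount, 1.24-fold to 1.26-fold. Their paralogues Lims2 and Parvb differed by more, while Parvg, near the floor, was lower at 46.4 and 76.2. Lims2, for PINCH2, read 2974 and 1813, 1.64-fold higher (0.71, or 0.13 recentred), and Parvb, for β-parvin, read 493 and 276, 1.78-fold higher (0.84, or 0.26 recentred). With Parvg the group of 6 had a median of 0.33, or -0.25 recentred.

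The talins went in opposite directions. Tln2, the talin of muscle, brain and kidney, read 1254 in the double knockout against 2796 in the control, 2.23-fold lower (-1.16, or -1.74 recentred), at percentile 1.63 of all measured genes. A second Tln2 probe set gave -0.71 (186 and 304), and the third was below the floor on both arrays. Their mean over the measured sets fell short of 2-fold, at -0.93. Tln1, the talin found in nearly all cells, read 3288 and 2301 on its brightest probe set (0.51, or -0.06 recentred). Dimmer Tln1 probe sets gave -0.27 (197 and 238) and 0.84 (94.1 and 32.5, the control below the floor), so the direction of Tln1 rests on the brightest one. Tln2 shared its direction with the proximal tubule markers, which summed to 163555 in the double knockout against 255866 in the control. Their part in it was not tested.

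Vcl, for vinculin, which strengthens the link from talin to actin, read 6430 in the double knockout against 3675 in the control, 1.75-fold higher (0.81, or 0.23 recentred). Its dimmer probe set gave 0.30 (254 and 206). Fermt2, the kindlin of adherent cells, read 5145 and 3471, 1.48-fold higher (0.57), and its other probe sets gave 0.40 and 0.46. It lay just short of 1.5-fold and level with the glomerular markers (-0.01 recentred). Talins, kindlins and vinculin had a median of 0.57, or -0.012 recentred, with 4 of 5 above 0 on the deposited scale.

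The scaffolds of the plaque were split. Pxn, for paxillin, was level at 5075 and 5011 (0.02), with others at 0.14 and -0.34. Bcar1, for the substrate p130Cas, read 1400 and 1347 (0.05) and 690 and 553 (0.32). Tgfb1i1, for the paxillin relative Hic-5, which TGF-β induces, read 1109 in the double knockout against 655 in the control, 1.69-fold higher (0.76, or 0.18 recentred). The 3 had a median of 0.05, or -0.52 recentred. Zyx, for zyxin of the mature, tension-bearing adhesion, read 1210 and 776, 1.56-fold higher (0.64, or 0.06 recentred), while a dim cross-hybridising probe set gave -0.10 (98.7 and 106).

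Tensins, which bind actin and β tails, also differed from each other. Tns3 read 11994 in the double knockout against 8272 in the control (0.54, or -0.04 recentred), with a dimmer probe set at 0.03. Tns1 was lower on all 3 of its probe sets, at -0.27, -0.36 and -0.29, the brightest reading 5887 and 7194. With Zyx they had a median of 0.54, or -0.043 recentred. The genes named for β subunits closed the list. Itgb1bp1, for ICAP-1, which competes with talin, was level at 1099 on each array. Itgb3bp, a centromere protein, read 232 and 290 (-0.32) on its brightest probe set. Dimmer Itgb3bp probe sets went both ways, at 0.07 (72.0 and 68.7) and -0.06 (47.7, below the floor, and 54.8). Itgb1bp2 and Itgbl1 were below the floor on both arrays.

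**Figure D3:**
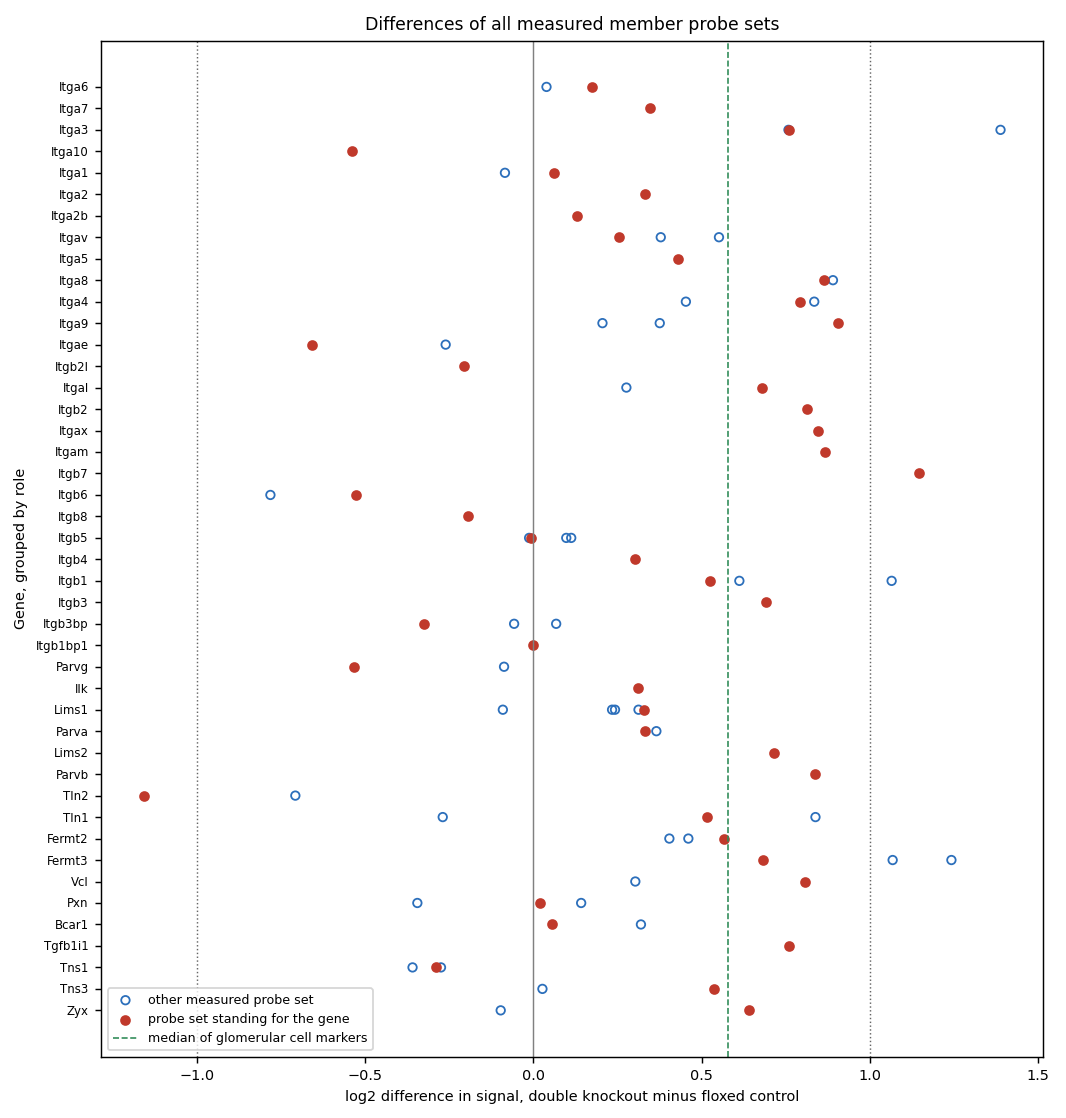
Log2 difference in signal, double knockout minus floxed control (x axis), of every measured probe set of the 44 measured member genes, with the set that stands for the gene filled; dotted lines mark 2-fold and the dashed line the glomerular marker median of 0.58. Tln2, Itgb6 and Tns1 lie left of 0 on all their sets and Itga3 and Itga8 lie right of the dashed line on all theirs, while the sets of Tln1 and Zyx fall on both sides of 0.

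Promoter sequence was set beside these differences for the members with an annotated window, whatever their direction. Windows from 250 bases before to 50 after an annotated start were in the RefSeq table (GRCm38.p6) for 33 of the 46 genes. Each was searched on both strands for GGAATG (bound by TEAD factors), TGACTCA (AP-1), GGGCGG (the GC box) and the CArG box of serum response factor. The AP-1 letters were in 3 of 33 members, Itga9, Itgax and Zyx (9.09%, against 5.95% of 27025 genes). The CArG box was in Fermt2, Itgb6 and Vcl (9.09%, against 1.81%). The TEAD letters were in Itga10, Itgb1 and Vcl (9.09%, against 16.6%), and the GC box was in 19 members (57.6%, against 38.2%). Member windows had a median GC content of 58.8%, against 52.7% over all windows. These are matches of letters, with no data on binding.

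The 250 bases before the start are shown for 4 of these genes: Vcl, which held 3 of the 4 motifs, Zyx and Itgax, higher and with an AP-1 match, and Itgb6, lower and with the same CArG letters as Vcl. Each runs 5′ to 3′ on the strand of the gene, with matches in capitals. They lie at chr14:20929148-20929397 on the plus strand, chr6:42349578-42349827 on the plus strand, chr7:128129300-128129549 on the plus strand and chr2:60673694-60673943 on the minus strand (GRCm38.p6). The Itgb6 window belongs to 1 of its 2 annotated starts, and the other held no match. In Vcl the first capitals are the CArG box, at -227 to -218 from the start, then come TEAD at -143 to -138 and 4 GC boxes, of which the first pair overlap by 1 base. In Zyx they are a GC box, AP-1 at -121 to -115 and a second GC box, in Itgax AP-1 at -56 to -50, and in Itgb6 the CArG box at -50 to -41.
Vcl: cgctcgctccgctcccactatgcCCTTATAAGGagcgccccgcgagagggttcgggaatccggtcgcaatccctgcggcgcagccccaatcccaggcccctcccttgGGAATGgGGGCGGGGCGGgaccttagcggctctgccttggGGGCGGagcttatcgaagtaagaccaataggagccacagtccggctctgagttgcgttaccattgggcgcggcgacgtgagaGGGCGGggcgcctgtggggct
Zyx: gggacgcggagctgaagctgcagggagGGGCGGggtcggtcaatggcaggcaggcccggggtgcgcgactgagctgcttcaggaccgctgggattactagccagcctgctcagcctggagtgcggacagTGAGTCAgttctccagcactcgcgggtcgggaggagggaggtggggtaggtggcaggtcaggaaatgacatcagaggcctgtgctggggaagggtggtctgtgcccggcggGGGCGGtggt
Itgax: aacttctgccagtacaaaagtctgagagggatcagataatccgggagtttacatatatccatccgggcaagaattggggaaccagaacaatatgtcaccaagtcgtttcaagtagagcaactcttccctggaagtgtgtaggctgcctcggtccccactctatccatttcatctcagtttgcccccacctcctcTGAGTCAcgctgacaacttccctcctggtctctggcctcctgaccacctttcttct
Itgb6: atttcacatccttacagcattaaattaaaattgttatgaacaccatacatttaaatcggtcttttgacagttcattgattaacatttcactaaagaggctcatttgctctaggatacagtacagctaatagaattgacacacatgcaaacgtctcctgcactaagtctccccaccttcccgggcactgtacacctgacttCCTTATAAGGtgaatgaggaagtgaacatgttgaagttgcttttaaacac

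The genes whose products meet these receptors were taken from lists of matrix ligands, counter-receptors and cytoplasmic partners. The lists were chosen with earlier results of these data known, so their shares only describe them and are no independent support. Interstitial and provisional matrix ligands had the highest median of these lists, 1.12 (0.54 recentred), with 18 of 20 measured genes past 1.5-fold upward and 0 downward. Their share of 90% upward compares with 13.7% of all genes and 48.2% of the 56 measured glomerular markers. Col1a1 (634 and 219), a collagen I chain, and Postn (143 and, below the floor, 41.3), for periostin, a ligand of αv integrins, joined Fn1 and Tnc as the 4 largest. Laminins and other basement membrane ligands had a median of 0.69 (0.12 recentred), with 11 of 21 past 1.5-fold upward (52.4%) and 0 downward. Hspg2, for perlecan, read 901 and 358 (1.33), Lama4 read 361 and 175 (1.05), Lamb3 read 109 and 58.4 (0.91) and Nid1, for nidogen 1, read 4368 and 2339 (0.90). The chains of laminin-521, the α3β1 ligand of the filter, stood at 0.25 for Lama5, 0.88 for Lamb2 and 0.76 for Lamc1. The 25 integrin subunit genes had a median of 0.35, or -0.23 recentred.

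Counter-receptors on cells had a median of 0.47 (-0.11 recentred), with Vcam1, Jam2 (808 and 370, 1.13) and Icam2 (2613 and 1595, 0.71) at least 1.5-fold higher among 7 (42.9%, against 13.7% of all genes). Icam1, the β2 ligand, read 1232 and 888 (0.47). Membrane proteins that travel with integrins had a median of 0.40 (-0.18 recentred), with Tspan4 (0.85), Cav1 for caveolin 1 (0.77) and Plaur for the urokinase receptor (0.70) the highest of 12, and Slc3a2, whose CD98 heavy chain binds β1 tails, the lowest at 6389 and 9407 (-0.56). Cd151, the tetraspanin partner of α3β1, read 7350 and 5102 (0.53).

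Kinases, adaptors and small GTPases downstream of adhesion had a median of 0.24 (-0.34 recentred), with 4 of 31 past 1.5-fold upward (12.9%, near the 13.7% of all genes) and 1 downward (3.23%, against 10.0%). Rhob (8616 and 5013, 0.78), Ptpn12 (4451 and 2772, 0.68) and Fyn (1716 and 1080, 0.67), for the kinase that phosphorylates nephrin, were the highest. Ptk2b, for the FAK relative PYK2, was the lowest at 327 and 680 (-1.06). Rac1, Rhoa and Cdc42 lay between 0.01 and 0.06. Other actin linkers had a median of 0.48 (-0.10 recentred), with 12 of 30 past 1.5-fold upward (40%, against 13.7%) and 0 downward. Pdlim1 (742 and 258, 1.52) and Actn1 (5127 and 2136, 1.26), for α-actinin 1, led them, followed by Kank2 (0.99) and Flna (0.95), for filamin A. Actn4, the podocyte α-actinin, read 12306 and 10916 (0.17).

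**Figure D4:**
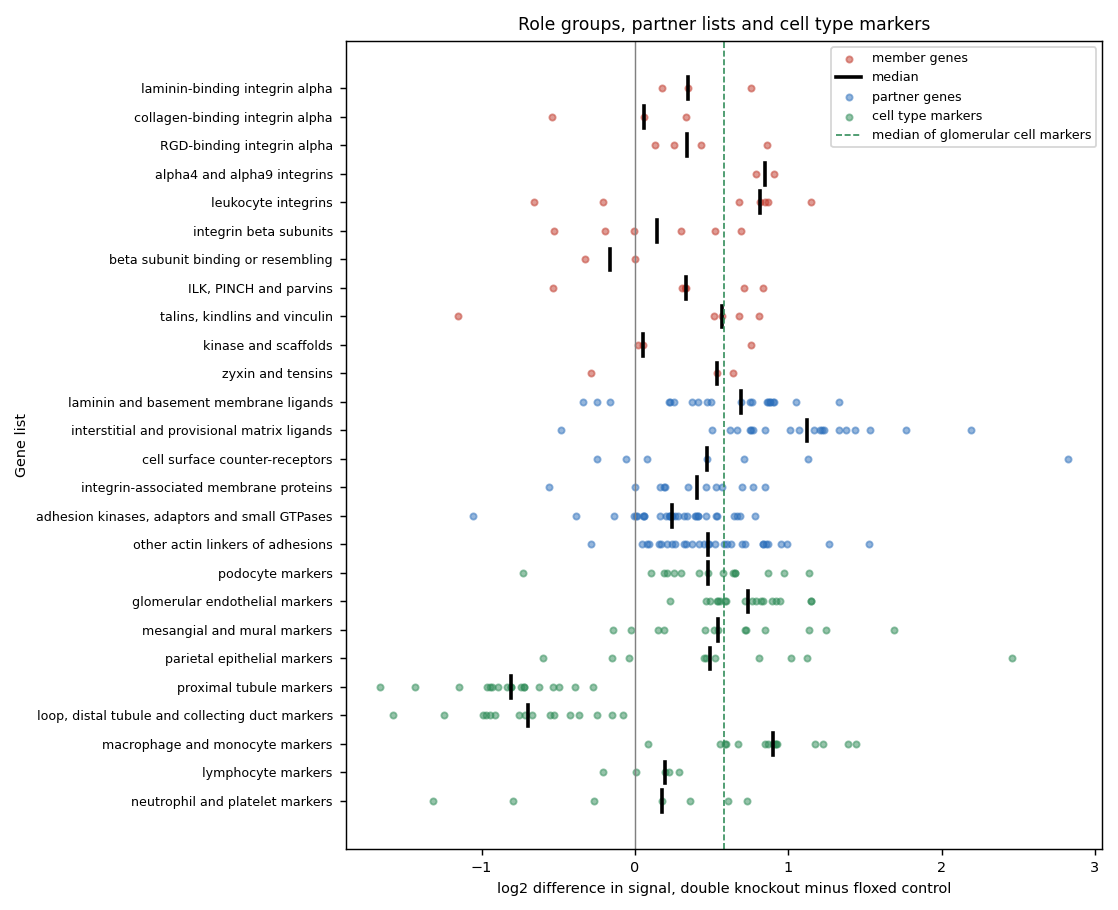
Log2 difference in signal, double knockout minus floxed control (x axis), of each measured gene (points) and the median (bar) of the role groups of the members (red), the partner lists (blue) and the cell type markers (green); the dashed line is the glomerular marker median of 0.58. The leukocyte integrins (0.81) and the interstitial matrix ligands (1.12) lie right of the dashed line, the integrin β subunits (0.15) and the scaffolds (0.05) lie left of it, so these last turn below 0 when recentred (-0.43 and -0.52), and both tubule lists lie below 0.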

How the data were processed

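RNA from sieved glomeruli was labelled by 3′ in vitro transcription and hybridised to 1-colour Affymetrix arrays, per the labels' protocols. The deposited values were linear intensities from MAS5 according to what the submitters' processing notes name, and the version is not given in the sources used here. The trimmed mean, without the lowest and highest 2%, was 500.0 on both arrays, so a difference is relative to the rest of the sample. Arrays were 2 in number, 1 per genotype, which limits the precision. Groups were taken from the genotype label.

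Values were used as deposited. Controls, 64 probe sets, were omitted. Of 45037 probe sets, 34945 had 1 gene symbol in GEO's platform annotation, 932 several and 9160 none. All 46 member genes matched the RefSeq table by identifier. A gene was represented by its brightest probe set, without _x_at sets where another existed. The floor was the mean over arrays of the 40th percentile. Folds against a signal below it are lower bounds.

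The members, role groups, partner lists, cell type markers and motifs were chosen with earlier results of these data known. Members were left out of the marker lists. All members could be named; signals are given for those at least 1.5-fold apart, those next to the 2-fold limit, core adhesion genes and those whose probe sets disagree in direction, and up to 4 genes per partner list, plus Npnt, Lama5, Lamb2, Lamc1, Cd151, Slc3a2, Rac1, Rhoa, Cdc42 and Actn4, picked after their values were seen. Integrin protein motifs were planned but not analysed here. Alternatives changed the floor, scaling, probe set, fold rule and members. The steps were tested on simulated signals. Python 3.11.15 was used with numpy 2.4.6, pandas 2.3.3 and statsmodels 0.14.6.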

Additional observations from a re-analysis of the deposited data

How the results depend on the processing

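The median member difference, 0.34, kept its direction and lay between 0.24 and 0.38 under the other floors, a pseudocount of 32, median, 75th percentile and quantile scaling, loess detrending, other probe set choices, integrin subunits alone, members without blood cell genes, and the mean in place of the median. It turned to -0.24 after recentring on glomerular markers, which subtracts a constant by construction; 17 of the 44 member genes changed sign there, and 0 to 3 under each other alternative. That recentring also turned the medians of ILK, PINCH and parvins (-0.25), RGD-binding α (-0.24), laminin-binding α (-0.23) and collagen-binding α subunits (-0.52), β subunits (-0.43), talins, kindlins and vinculin (-0.012), the scaffolds (-0.52), zyxin and tensins (-0.043), counter-receptors (-0.11), integrin-associated membrane proteins (-0.18), adhesion kinases and adaptors (-0.34) and other actin linkers (-0.10). With the probe set of median difference, collagen-binding α subunits read -0.085 and zyxin and tensins -0.097. These are the values of Itga1 and Zyx, the middle genes of those groups, each from its lower probe set. For any gene with 2 measured probe sets, this choice takes the lower difference. Under it the median over all genes also fell, from 0.068 to 0.017. A floor at the 60th percentile put the β subunits at -0.0088, the value of Itgb5, with Itgb4 not measured there.

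The count at least 2-fold higher (1, Itgb7) was 2 under a floor at the 25th percentile, the probe set of median difference or without _s_at sets, 3 with no floor, 0 under a floor at the 60th percentile or after recentring, 16 at 1.5-fold and 0 at 3-fold. The count at least 2-fold lower (1, Tln2) was 2 with no floor, 5 after recentring, 0 with the mean over probe sets, 2 at 1.5-fold and 0 at 3-fold. Of the 16 members at least 1.5-fold higher, Itgb3, Itgal, Fermt3, Itga9, Vcl and Zyx fell short of it under 1 or more alternatives besides recentring (scaling, floor, pseudocount or probe set choice), Itgam, Itgax and Itgb7 were not measured under a floor at the 60th percentile, and the other 7 kept it. Itgae, lower, fell short of 1.5-fold with a pseudocount of 32 (-0.46) and with the mean over probe sets (-0.46). It also fell short without _x_at and _s_at sets (-0.26), and it was not measured under a floor at the 60th percentile. Both 2-fold counts rest on 1 gene each, and the one for Itgb7 on where the floor is set. No paired analysis was possible because each genotype had 1 array, and no array could be left out. Dim members (Itga10, Itgae, Itga2, Parvg, Itgb2l) lie near the floor, where a difference is not resolved. The same limit bears on higher members that were dim. Itgam (96.0 and 36.7) and Itgb7 (116 and 17.4) had a control below the floor. Itgb4 (102 and 82.6), Itga5 (123 and 90.9) and Itgax (155 and 86.1) were not far above it.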
